A study of Homo sapiens with 24 samples.

Results

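The genes described here are 34 members of the ATF4 amino acid stress response, a list of transcription factors, enzymes, transporters and secreted proteins chosen by name with earlier results of these arrays known. Of the 34, 33 had at least 1 probe set assigned to a single gene symbol, among 18265 genes measured in all. GPT2, a mitochondrial alanine aminotransferase, was not analysed here. Messenger RNA was measured on 24 arrays in 4 established human cancer cell lines, with 3 melatonin arrays and 3 control arrays of each line. The groups were melatonin-treated and control HCT-8 cells (colorectal), melatonin-treated and control HGC-27 cells (gastric), and melatonin-treated and control cells of the liver lines Huh-7 and HepG2. Treated cells carry the label 24 h and by the study's methods received melatonin at 2.5 mmol/L. The labels put the controls at 0 h, whereas the methods describe controls given ethanol for as long as the treatment, so time in culture and melatonin cannot be told apart by the labels. HCT-8 and HGC-27 cells were grown in RPMI medium and the liver lines in DMEM, media that differ in their amino acids.

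ATF4 is a transcription factor whose translation increases when the initiation factor eIF2 is phosphorylated, by the kinase GCN2 under amino acid shortage, by PERK under stress of the endoplasmic reticulum and by HRI or PKR under other stresses. With partners of the C/EBP family it binds a composite sequence, the C/EBP-ATF response element, and switches on genes for the uptake and synthesis of amino acids, the charging of tRNAs and the defence against oxidation. It also induces DDIT3, TRIB3 and CHAC1, which are linked to cell death under lasting stress, and PPP1R15A, which directs removal of the phosphate from eIF2. Since ATF4 is controlled mainly by translation, its mRNA does not measure its protein, which was not assayed on these arrays.

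Marker genes were ranked by the percentile of their mean intensity among all genes of a line, a rough guide because probe sets differ in brightness. The 9 hepatocyte markers stood at percentiles 76.9 to 100 in HepG2 and 59.7 to 99.9 in Huh-7 cells, and the 7 intestinal markers at 37.8 to 97.9 in HCT-8 cells. In HGC-27 cells the 4 epithelial markers stood at percentiles 13.5 to 23.3, and the mesenchymal markers VIM, ZEB1 and CDH2 at 100, 85.1 and 24.8. HepG2 melatonin replicate 1 stood apart: its ACTB probe sets differed by 8.34 log2 units between transcript ends, the 3′ end being brighter, compared with 0.08 to 0.72 on the remaining 23 arrays. Its correlation over genes with the other HepG2 arrays was 0.938 to 0.953, while arrays within every group other than HepG2 melatonin correlated at 0.997 or more. HepG2 counts are therefore given with and without that array, and a single HepG2 value is over all arrays unless that array is named as left out. Array medians lay between 2.13 and 3.33 log2 units and differed by line, so intensities were compared only within a line.

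Most of these genes had more mRNA in melatonin-treated than in control cells of HCT-8, HGC-27 and Huh-7. At an adjusted p of 5% in limma over all genes, 20 of the 33 members rose and 0 fell in HCT-8 cells, where 16.6% of all genes were called higher and 15% lower. In HGC-27 cells 29 rose and 0 fell (20.9% and 18.7% of all genes), and in Huh-7 cells 25 rose and 4 fell (23.8% and 27.4%). HepG2 cells had 7 members higher and 0 lower over all 6 arrays (3.87% and 3.67% of all genes), and 23 higher and 0 lower without melatonin replicate 1 (16.4% and 14.9%). At an unadjusted p of 5% in limma, members lower numbered 2 in HCT-8, 0 in HGC-27 and 0 in HepG2 cells (1 without melatonin replicate 1), and the methods' test after adjustment called 0 lower in each. The median log2 fold change of the members was 0.38 in HCT-8 cells, where that of all genes was -0.03. It was 0.59 in HGC-27 cells (all genes -0.01), 0.76 in Huh-7 cells (all genes -0.06) and 0.22 in HepG2 cells (all genes 0.04), or 0.50 without melatonin replicate 1 (all genes 0.01). The lines HCT-8, HGC-27 and Huh-7 shared 18 members called higher in each, a pattern of 8.38% of all genes. ASNS, MTHFD2, CEBPB, CEBPG and NUPR1, 5 members, rose in all 4 lines (2.26% of all genes), and 15 members did without HepG2 melatonin replicate 1 (6.16%). Without any 1 of the 3 HepG2 control arrays, NUPR1 was the 1 member called in HepG2 cells and in all 4 lines.

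**Figure D1:**
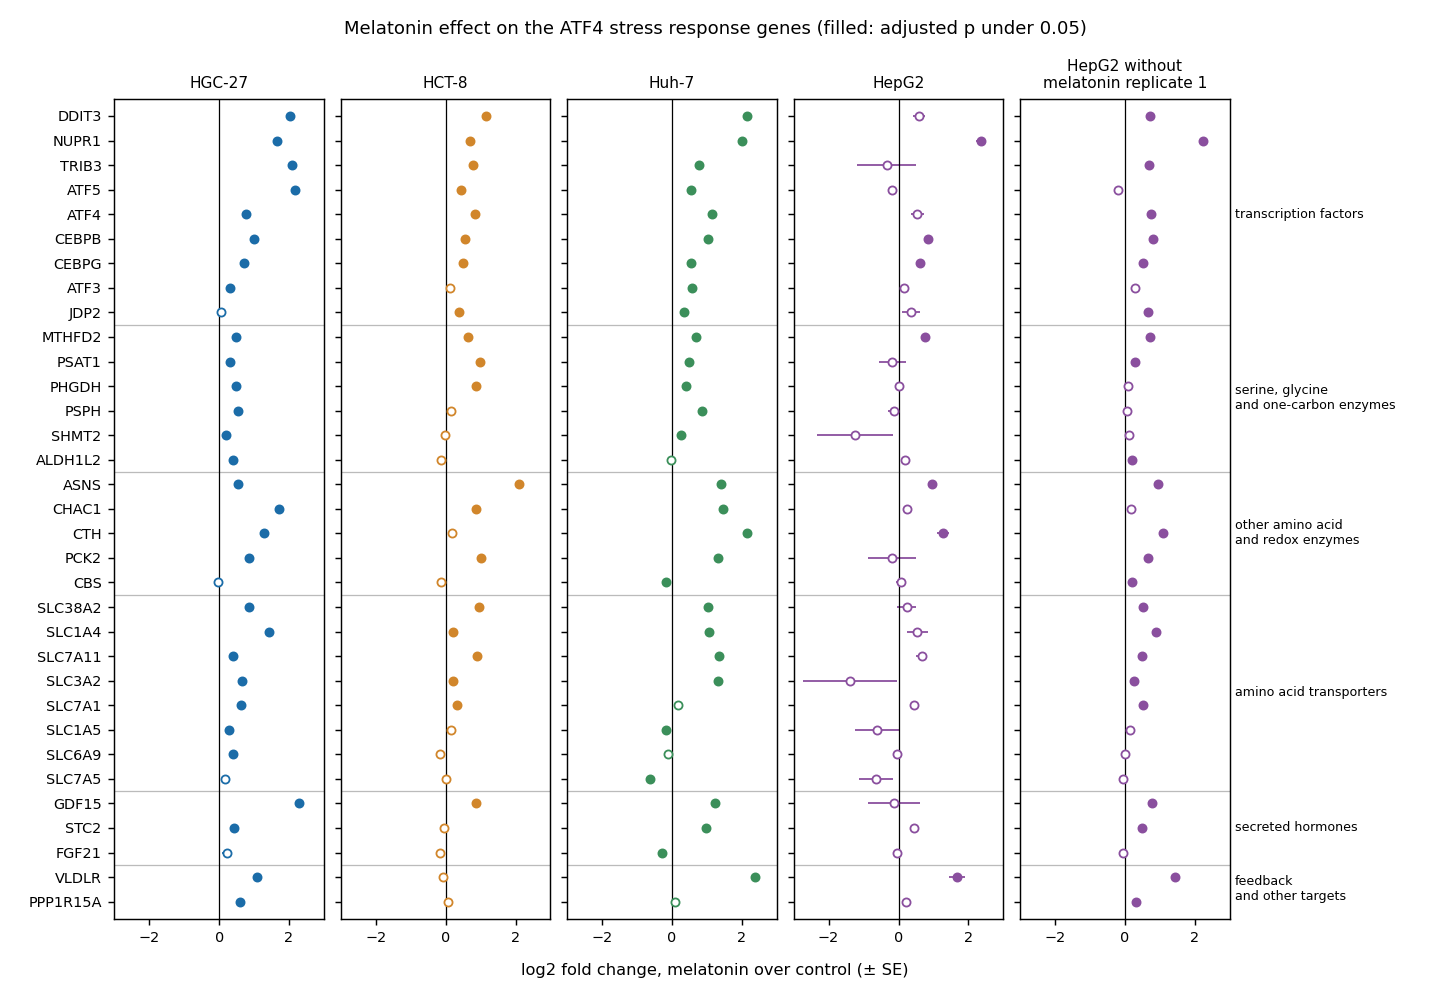
Log2 fold change of each of the 33 measured members, melatonin over control, by role (rows) in each line (panels), with the SE as a bar where it is wider than the point. Filled points passed an adjusted p of 5% in limma. All filled points lie right of 0 except 4 in Huh-7 cells, and the bars are widest in HepG2 cells over all arrays.

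Promoters were searched for the core of the response element, the letters TGATGNAA on either strand, in RefSeq windows (GRCh38.p14) running from 250 bases before to 50 bases after each annotated start. Of the 28 members with a window, 10 held a match, or 35.7%, as did 4.46% of all 27305 genes with one. A gene can have several windows, and by window 10 of the members' 47 matched, against 3.62% of all 35116. The members were chosen by name as genes of the ATF4 response, which limits what these shares can show. For the 1 letter shorter TGATGNA, which the longer motif contains, the counts were 11 of 28 members and 12.1% of genes. The 7 matches lying wholly before a start are printed to set the element beside each gene's response, 30 bases each in the direction of transcription. Capitals mark the match, and TTGCATCA is the element read on the opposite strand.
ASNS (chr7:97872458-97872487, - strand): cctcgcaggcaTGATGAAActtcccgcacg
CHAC1 (chr15:40953251-40953280, + strand): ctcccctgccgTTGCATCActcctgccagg
ATF3 (chr1:212565205-212565234, + strand): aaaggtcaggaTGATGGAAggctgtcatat
CEBPG (chr19:33374060-33374089, + strand): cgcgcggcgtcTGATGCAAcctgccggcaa
JDP2 (chr14:75427995-75428024, + strand): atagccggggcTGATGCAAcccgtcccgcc
SLC1A5 (chr19:46784893-46784922, - strand): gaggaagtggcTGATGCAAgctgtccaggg
FGF21 (chr19:48755459-48755488, + strand): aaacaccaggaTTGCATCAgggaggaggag

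With the start base counted as 0, the match began at -68 in ASNS, -209 in CHAC1, -191 in ATF3, -42 in CEBPG, -16 in JDP2, -97 in SLC1A5 and -54 in FGF21. In SLC1A4 it spanned the start, and in SLC3A2 and SLC7A1 it followed the start. The genes that carried it did not respond alike. ASNS and CEBPG rose in all 4 lines. SLC1A5 rose in HGC-27 and fell in Huh-7 cells, a fall of 0.17 log2 units whose call several alternative fits lost. FGF21 rose in no line but was dim in HCT-8, Huh-7 and HepG2 cells, at percentiles 24.5, 17.8 and 7.7 of all genes. A match is a description of the sequence, and binding of ATF4 was not measured.

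ATF4 mRNA, measured by 1 probe set, was above the controls on every melatonin array. In Huh-7 cells its log2 intensity was 11.38, 11.28 and 11.29 with melatonin, against 10.16, 10.18 and 10.21 in controls. In HCT-8 cells it was 9.63, 9.75 and 9.73 with melatonin, against 8.83, 8.92 and 8.85 in controls. The groups did not overlap, and ATF4 rose 2.2-fold in Huh-7 (log2 1.14 ± 0.05 SE, n = 3 each, limma adjusted p = 7.98e-07), 1.78-fold in HCT-8 and 1.71-fold in HGC-27 cells. HepG2 cells had 10.25, 10.85 and 10.86 with melatonin, against 10.1, 10.11 and 10.14 in controls. Replicate 1, the first value, lay between the controls and the other melatonin arrays. The HepG2 difference was 0.54 ± 0.18 log2 units (SE, limma adjusted p = 0.141) over all arrays and 0.74 ± 0.06 without replicate 1 (limma adjusted p = 0.000118).

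ATF4, 7 further transcriptional regulators and the pseudokinase TRIB3 make up 9 members. Of these, 8 rose in HCT-8 (16.6% of all genes), 8 in HGC-27 (20.9%) and 9 in Huh-7 cells (23.8%). In HepG2 cells 3 rose (3.87%), and 7 did without melatonin replicate 1 (16.4%). DDIT3, also called CHOP, is a C/EBP relative linked to death of stressed cells. In Huh-7 cells DDIT3 had log2 intensities of 6.12, 6.1 and 6.4 with melatonin, against 4.07, 4.04 and 4.08 in controls. In HGC-27 cells it had 5.99, 5.98 and 6.2 with melatonin, against 4.03, 3.98 and 4.08 in controls, and in HCT-8 cells 3.48, 3.43 and 3.34 with melatonin, against 2.48, 2.12 and 2.2 in controls. All 3 lines showed a wide gap between the groups, with rises of 4.42-fold, 4.08-fold and 2.22-fold in that order. In HepG2 cells DDIT3 had 4.7, 5.34 and 4.85 with melatonin, against 4.35, 4.47 and 4.29 in controls, a difference of 0.59 ± 0.17 log2 units (SE, limma adjusted p = 0.108) over all arrays and a 1.65-fold rise without replicate 1 (limma adjusted p = 0.00457). The DDIT3 effect was 0.99 log2 units smaller in HCT-8 than in Huh-7 cells (limma pair adjusted p = 0.000432).

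NUPR1, a small stress-induced chromatin protein, had 7.91, 7.68 and 7.43 with melatonin, against 5.28, 5.19 and 5.48 in controls in HepG2 cells. Here replicate 1 lay with the other melatonin arrays, far above the controls, and the rise was 5.12-fold (log2 2.36 ± 0.15 SE, limma adjusted p = 0.00307). NUPR1 rose 4.01-fold in Huh-7, 3.17-fold in HGC-27 and 1.62-fold in HCT-8 cells, and the HCT-8 effect was 1.31 log2 units below that of Huh-7 (limma pair adjusted p = 4.19e-06). TRIB3, which restrains AKT and ATF4, had 8.39, 8.36 and 8.42 with melatonin, against 6.24, 6.37 and 6.33 in controls in HGC-27 cells and rose 4.21-fold there. In HepG2 cells TRIB3 had 5.49, 8.72 and 8.45 with melatonin, against 7.91, 7.91 and 7.86 in controls, so replicate 1 fell below every control and the other melatonin arrays lay above them. The difference was -0.34 ± 0.84 log2 units (SE, limma adjusted p = 0.853) over all arrays, and TRIB3 was higher by 0.69 without replicate 1. TRIB3 rose 1.73-fold in HCT-8 and 1.69-fold in Huh-7 cells.

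ATF5, a relative of ATF4 that is under the same translational control, had 7.33, 7.51 and 7.19 with melatonin, against 5.18, 5.3 and 5.01 in controls in HGC-27 cells. It rose 4.52-fold there and by 0.43 and 0.53 log2 units in HCT-8 and Huh-7 cells. In HepG2 cells ATF5 had 4.36, 4.24 and 4.36 with melatonin, against 4.54, 4.55 and 4.42 in controls, with each melatonin array below the controls by a margin that did not pass the test (log2 -0.18 ± 0.08 SE, limma adjusted p = 0.267). The HGC-27 effect exceeded that of HCT-8 by 1.75 and that of Huh-7 by 1.65 log2 units (limma pair adjusted p = 4.37e-09 and 9.53e-09). The C/EBP partner CEBPB rose by 0.54 log2 units in HCT-8, 0.99 in HGC-27, 0.84 in HepG2 and 1.02 in Huh-7 cells. CEBPG, another partner, rose by 0.51, 0.70, 0.62 and 0.53 in the same lines, and its effect was not called different between lines (limma interaction adjusted p = 0.342 over all arrays and 0.104 when HepG2 melatonin replicate 1 was left out). Of its 2 probe sets, 1 gave -0.01 and the other 1.07 in Huh-7 cells. The stress repressor ATF3 rose by 0.32 in HGC-27 and 0.58 in Huh-7 cells as a mean of 7 probe sets, which ranged over -0.07 to 1.72 in Huh-7. JDP2, a related repressor, rose by 0.38 in HCT-8 and 0.34 in Huh-7 cells, but in each of HCT-8, HGC-27 and Huh-7 cells 2 of its 3 probe sets were called higher and 1 lower, so its mean is uncertain.

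**Figure D2:**
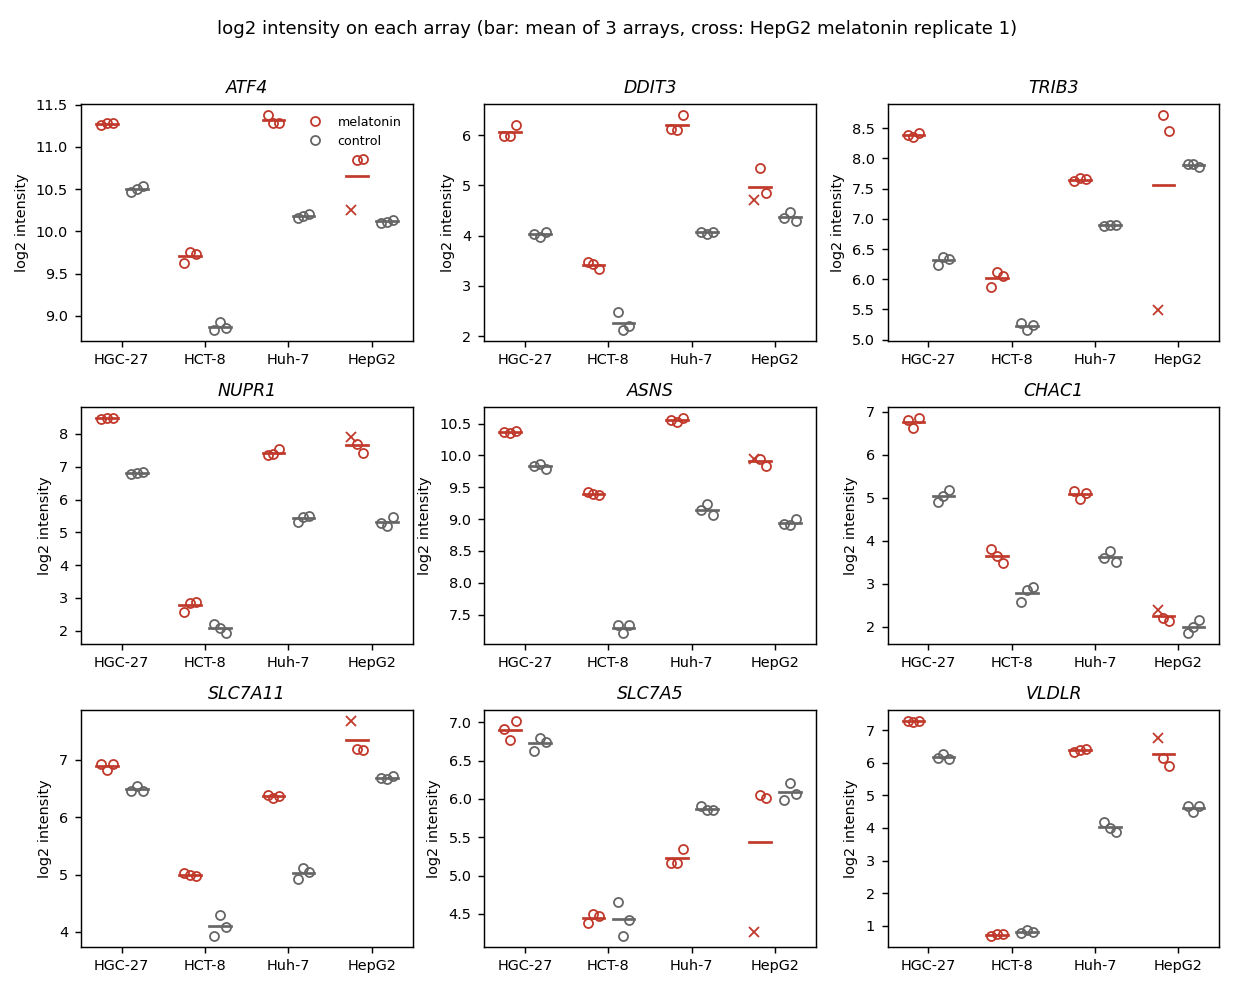
Log2 intensity (y axis, not starting at 0 and different for each gene) of 9 members on every array, with melatonin (red) left of control (grey) in each line, bars at group means and a cross for HepG2 melatonin replicate 1. ATF4, DDIT3, NUPR1 and ASNS show no overlap of the groups in any line, the cross lies far below the other HepG2 arrays for TRIB3 and SLC7A5, and SLC7A5 is lower with melatonin in Huh-7 cells.

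ASNS, which makes asparagine, had 9.42, 9.39 and 9.38 with melatonin, against 7.33, 7.21 and 7.33 in controls in HCT-8 cells, the largest rise of any member in that line at 4.3-fold. Its 4 probe sets agreed, with log2 changes of 2.03 to 2.19. In HGC-27 cells ASNS had 10.37, 10.36 and 10.39 with melatonin, against 9.83, 9.87 and 9.79 in controls, 1.46-fold higher. In HepG2 cells it had 9.94, 9.95 and 9.84 with melatonin, against 8.93, 8.9 and 9 in controls, 1.95-fold higher (limma adjusted p = 0.00495), and replicate 1 lay among the melatonin arrays. The ASNS effect differed in each of the 6 pairs of lines, being 1.56 log2 units smaller in HGC-27 than in HCT-8 cells (limma pair adjusted p = 4.32e-11).

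Of the 6 enzymes of serine, glycine and one-carbon metabolism, 3 rose in HCT-8, 6 in HGC-27 and 5 in Huh-7 cells. In HepG2 cells 1 rose over all arrays and 3 without melatonin replicate 1. Of all genes, 16.6% were called higher in HCT-8, 20.9% in HGC-27 and 23.8% in Huh-7 cells. The HepG2 shares were 3.87% over all arrays and 16.4% without that array. PHGDH and PSAT1, which carry a glycolytic intermediate toward serine, rose in HCT-8 cells, where PSAT1 had 8.06, 8.01 and 8.03 with melatonin, against 7.13, 6.97 and 7.08 in controls and PHGDH 8.36, 8.41 and 8.39 with melatonin, against 7.47, 7.53 and 7.57 in controls. The rises were 1.96-fold and 1.82-fold, without overlap. The PHGDH effect was 0.40 log2 units smaller in HGC-27 than in HCT-8 cells (limma pair adjusted p = 0.0056). For PSAT1 the same difference was 0.65 and did not pass over all arrays (limma pair adjusted p = 0.187, and 3.91e-07 without HepG2 melatonin replicate 1). PSPH, the last enzyme of serine synthesis, rose 1.82-fold in Huh-7 and 1.46-fold in HGC-27 cells, while HCT-8 cells differed by 0.14 ± 0.06 log2 units (SE, limma adjusted p = 0.0989). Its effect was 0.72 log2 units smaller in HCT-8 than in Huh-7 cells (limma pair adjusted p = 0.00194). MTHFD2, a mitochondrial folate enzyme, rose 1.68-fold in HepG2, 1.6-fold in Huh-7, 1.54-fold in HCT-8 and 1.41-fold in HGC-27 cells, and was called different only between HGC-27 and HepG2 among the pairs of lines over all arrays (limma pair adjusted p = 0.00913). SHMT2, which splits serine to glycine in mitochondria, rose by 0.20 and 0.25 log2 units in HGC-27 and Huh-7 cells. In HepG2 cells SHMT2 had 4.23, 8.27 and 8.32 with melatonin, against 8.12, 8.23 and 8.18 in controls, replicate 1 being far below every other array. ALDH1L2, a mitochondrial folate dehydrogenase, rose by 0.40 in HGC-27 cells and by 0.19 in HepG2 cells without melatonin replicate 1 (limma adjusted p = 0.0419, and 0.183 over all arrays).

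CHAC1, which degrades glutathione, had 6.8, 6.62 and 6.86 with melatonin, against 4.89, 5.04 and 5.18 in controls in HGC-27 cells and rose 3.29-fold there, 2.74-fold in Huh-7 and 1.82-fold in HCT-8 cells. In HepG2 cells it had 2.39, 2.19 and 2.13 with melatonin, against 1.85, 1.99 and 2.16 in controls, groups that overlap. Its effect was 1.48 log2 units larger in HGC-27 than in HepG2 cells (limma pair adjusted p = 1.47e-06, and 1.46e-07 without HepG2 melatonin replicate 1). CHAC1 was dimmer than most genes in HepG2 cells, at percentile 40.8 of all genes, and stood at percentile 82.5 in HGC-27 cells. CTH, which makes cysteine from cystathionine, had 7.17, 7.2 and 7.25 with melatonin, against 5.27, 5.1 and 4.87 in controls in Huh-7 cells. CTH rose 4.37-fold there, 2.44-fold in HGC-27 and 2.42-fold in HepG2 cells, and differed by 0.17 ± 0.06 log2 units in HCT-8 cells (SE, limma adjusted p = 0.0709). CBS, which supplies the cystathionine, had 7.89, 7.8 and 7.87 with melatonin, against 8.02, 8.08 and 7.99 in controls in Huh-7 cells, a fall of 0.17 ± 0.05 log2 units (SE, limma adjusted p = 0.024). Of its 6 probe sets, 2 were called lower there. This call was lost without control replicate 2 or melatonin replicate 2, with the brightest probe set and with repeated quantile normalization. ERCC spike-in centring, the replicate block and the joint fit also lost it. PCK2, the mitochondrial phosphoenolpyruvate carboxykinase, rose 2.49-fold in Huh-7, 2.01-fold in HCT-8 and 1.81-fold in HGC-27 cells, and 1.59-fold in HepG2 cells without melatonin replicate 1. Over all HepG2 arrays PCK2 differed by -0.19 ± 0.69 log2 units (SE, limma adjusted p = 0.903).

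Of the 8 amino acid transporters, 5 rose in HCT-8, 7 in HGC-27 and 4 in Huh-7 cells, where 2 fell. In HepG2 cells 0 passed the limma test over all arrays (2 at an unadjusted p of 5%, and 0 in the methods' test after adjustment) and 5 rose without melatonin replicate 1. Of all genes, 16.6% were called higher in HCT-8, 20.9% in HGC-27 and 23.8% in Huh-7 cells, where 27.4% were lower. The HepG2 shares higher were 3.87% over all arrays and 16.4% without that array. SLC7A11, the cystine importer, had 6.38, 6.34 and 6.37 with melatonin, against 4.92, 5.12 and 5.05 in controls in Huh-7 cells, 2.53-fold higher, and rose 1.86-fold in HCT-8 and 1.32-fold in HGC-27 cells. Its effect was 0.94 log2 units smaller in HGC-27 than in Huh-7 cells (limma pair adjusted p = 0.000122). SLC38A2, an importer of small neutral amino acids, rose 2.04-fold in Huh-7, 1.92-fold in HCT-8 and 1.82-fold in HGC-27 cells, and no pair of these lines was called different for it. SLC1A4, a carrier of serine, alanine and cysteine, rose 2.67-fold in HGC-27, 2.07-fold in Huh-7 and 1.16-fold in HCT-8 cells. SLC7A1, a carrier of arginine and lysine, rose by 0.61 log2 units in HGC-27 and 0.32 in HCT-8 cells, and SLC6A9, a glycine carrier, by 0.40 in HGC-27 cells.

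SLC3A2 is the heavy chain that brings SLC7A11 and SLC7A5 to the membrane. In Huh-7 cells SLC3A2 had 9.66, 9.71 and 9.65 with melatonin, against 8.39, 8.35 and 8.33 in controls, 2.49-fold higher, and all 7 of its probe sets rose. SLC7A5, an exchanger of large neutral amino acids, had 5.17, 5.17 and 5.35 with melatonin, against 5.91, 5.85 and 5.86 in controls in the same cells. It fell without overlap by 0.64 ± 0.06 log2 units (SE, limma adjusted p = 4.78e-05), on both of its probe sets. In HGC-27 cells SLC7A5 had 6.91, 6.77 and 7.02 with melatonin, against 6.63, 6.8 and 6.75 in controls, groups that overlap, and its 2 probe sets gave -0.19 and 0.53. The SLC7A5 effect was 0.81 log2 units higher in HGC-27 than in Huh-7 cells (limma pair adjusted p = 0.192, and 3.21e-05 without HepG2 melatonin replicate 1). SLC1A5, a glutamine carrier, rose by 0.28 in HGC-27 and fell by 0.17 in Huh-7 cells (limma adjusted p = 0.00247 and 0.0261). The Huh-7 call was lost without control replicate 1, control replicate 2 or melatonin replicate 2 (limma adjusted p = 0.0642, 0.0674 and 0.0944), with the brightest probe set, with ERCC spike-in centring and in the joint fit. With that limit, SLC1A5 was the 1 member called in opposite directions in 2 lines (5.08% of all genes). CBS, whose Huh-7 call was lost in several fits too, made it 2 without HepG2 melatonin replicate 1 (6.87%).

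The secreted members are GDF15, which lowers appetite through the brainstem, FGF21, a metabolic hormone of the liver, and STC2, a glycoprotein hormone. GDF15 had 6.53, 6.54 and 6.59 with melatonin, against 5.27, 5.34 and 5.35 in controls in Huh-7 cells and 5.82, 5.89 and 5.89 with melatonin, against 4.94, 5.03 and 5.05 in controls in HCT-8 cells, rises of 2.36-fold and 1.81-fold. In HGC-27 cells GDF15 rose 4.81-fold. These are means of 5 probe sets whose log2 changes ranged over -0.13 to 4.01 in HGC-27, 0.09 to 1.24 in HCT-8 and 0.06 to 1.93 in Huh-7 cells, so the size depends on the probe set in each line. In HepG2 cells GDF15 had 5.58, 8.35 and 8.26 with melatonin, against 7.43, 7.63 and 7.51 in controls, a difference of -0.13 ± 0.74 log2 units (SE, limma adjusted p = 0.941) over all arrays and a 1.72-fold rise without replicate 1. STC2 rose 1.96-fold in Huh-7 and 1.35-fold in HGC-27 cells and was dim in HCT-8 cells, at 0.75, 0.84 and 0.84 with melatonin, against 0.8, 0.84 and 0.89 in controls. FGF21, with 1.32, 1.39 and 1.3 with melatonin, against 1.86, 1.49 and 1.54 in controls in Huh-7 cells, was called lower there by 0.29 ± 0.09 log2 units (SE, limma adjusted p = 0.0328) at a dim level, percentile 17.8 of all genes.

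VLDLR, a lipoprotein receptor induced through PERK and ATF4 in liver cells, had 6.34, 6.38 and 6.43 with melatonin, against 4.19, 4 and 3.88 in controls in Huh-7 cells, the largest rise of any member in that line at 5.13-fold. HepG2 cells had 6.77, 6.15 and 5.89 with melatonin, against 4.68, 4.48 and 4.66 in controls, 3.17-fold higher and 2.67-fold without replicate 1, which was the highest array. VLDLR rose 2.13-fold in HGC-27 cells and was dim in HCT-8 cells, at 0.69, 0.74 and 0.75 with melatonin, against 0.78, 0.86 and 0.82 in controls. PPP1R15A, also called GADD34, rose by 0.59 log2 units in HGC-27 cells and by 0.31 in HepG2 cells without melatonin replicate 1, and differed by 0.22 ± 0.12 over all HepG2 arrays, 0.08 ± 0.07 in HCT-8 and 0.07 ± 0.07 in Huh-7 cells (SE). Its effect in HGC-27 cells exceeded that in HCT-8 cells by 0.51 log2 units (limma pair adjusted p = 0.0055).

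A joint limma fit of the 24 arrays tested the differences between lines. The effect of melatonin differed between the 4 lines for 23 members (34.3% of all genes), and for 31 without HepG2 melatonin replicate 1 (53.6%). This fit holds 1 spread per gene, whereas HepG2 melatonin arrays had a median SD over genes of 0.186, against 0.058 to 0.082 in the other groups. HGC-27 and HCT-8 cells differed for 15 members, 12 with the more positive effect in HGC-27 (11.3% of all genes). HGC-27 and Huh-7 cells differed for 10, of which 5 were more positive in HGC-27 (18.6%). Between HCT-8 and Huh-7 cells 13 differed, and the 2 more positive in HCT-8 were ASNS and PHGDH (17.9%). DDIT3, CEBPB, NUPR1, CHAC1, SLC1A4 and CTH had smaller effects in HCT-8 cells than in both HGC-27 and Huh-7 cells. VLDLR and STC2 were also called so, but both were dim in HCT-8 cells, at percentiles 10.6 and 14 of all genes. NUPR1, DDIT3, SLC1A4 and CHAC1 also started low there, with control means of 2.08, 2.27, 2.68 and 2.78 log2 units. The HCT-8 array medians were 2.13 to 2.15. Whether low intensity made these effects smaller was not tested. Without HepG2 melatonin replicate 1 the counts of these 3 pairs were 22, 23 and 21, and the shares of all genes grew to 25.1%, 34.2% and 33.3%.

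In HepG2 cells, melatonin replicate 1 lay below both other melatonin arrays for 21 of the 33 members and above both for 7. It was more than 1 log2 unit under their mean for 9. These counts were not made over all genes, so they do not set the members apart from other genes on that array. The gap was -5.01 log2 units for SLC3A2, -4.06 for SHMT2 and -3.10 for TRIB3. SLC3A2 had 3.69, 8.74 and 8.65 with melatonin, against 8.33, 8.49 and 8.44 in controls, so replicate 1 alone set the sign of its mean. ASNS, MTHFD2, CEBPB, CEBPG, VLDLR, NUPR1 and CTH, the 7 members called over all arrays, had replicate 1 at or above the mean of the others, between 0.04 log2 units in ASNS and 0.75 in VLDLR. Without it ATF4, DDIT3, PSAT1, TRIB3, SLC7A11, SLC3A2, SLC7A1, SLC38A2, SLC1A4, PPP1R15A, GDF15, STC2, ALDH1L2, PCK2, CBS and JDP2 also rose, and PHGDH, PSPH, SHMT2, CHAC1, ATF3, ATF5, SLC7A5, SLC1A5, SLC6A9 and FGF21 did not pass. The part of RNA quality in these values was not tested beyond leaving out the array.

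**Figure D3:**
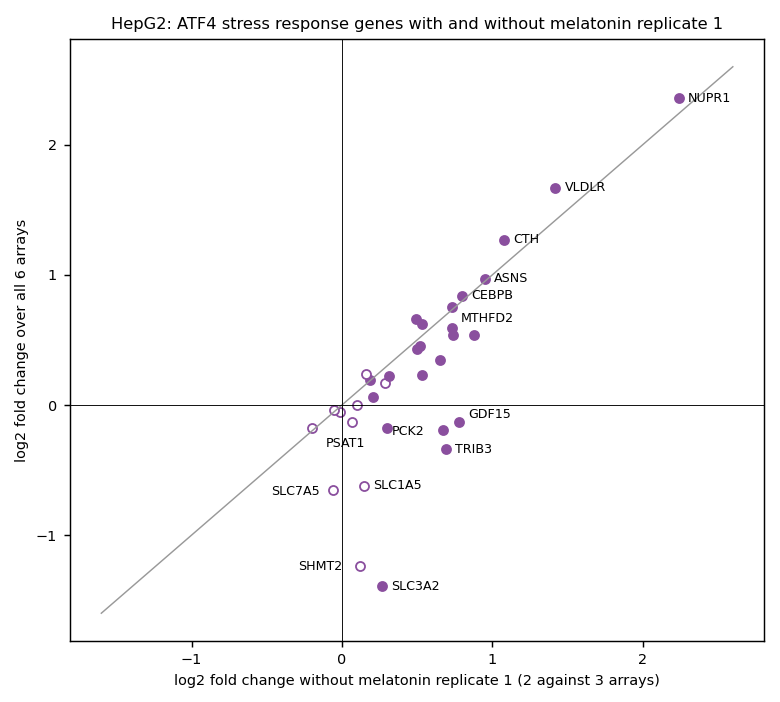
Log2 fold change of each measured member in HepG2 cells, melatonin over control, without melatonin replicate 1 (x axis) and over all 6 arrays (y axis), with the line of equality. Filled points passed an adjusted p of 5% in limma without that array. SLC3A2, SHMT2, TRIB3 and GDF15 lie well under the line, and NUPR1 and VLDLR lie just above it.

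Other genes of the pathway were counted in lists from general knowledge, with the shares of all genes given above as background. These lists were chosen with earlier results of these data known, which limits what their counts can show. Of 24 other known ATF4 targets, 15 rose and 3 fell in HCT-8, 19 rose and 2 fell in HGC-27, and 18 rose and 4 fell in Huh-7 cells, and 4 and 0 in HepG2 cells (15 and 1 without melatonin replicate 1). Over all HepG2 arrays 1 of them was lower at an unadjusted p of 5% in limma and 0 in the methods' test. DDIT4, an inhibitor of mTORC1, rose by 2.23, 1.93 and 2.81 log2 units in HCT-8, HGC-27 and Huh-7 cells. CCPG1, an autophagy receptor of the endoplasmic reticulum, rose by 1.16, 1.37, 1.48 and 1.23 in HCT-8, HGC-27, Huh-7 and HepG2 cells. ALDH18A1, an enzyme of proline synthesis, fell by 0.46, 0.58 and 0.50 in the first 3. Of 13 tRNA synthetases known as ATF4 targets, 9 rose and 1 fell in HCT-8, 7 rose and 2 fell in HGC-27, and 9 rose and 2 fell in Huh-7 cells, and 2 and 1 in HepG2 cells (6 and 2 without melatonin replicate 1). CARS1, for cysteine, rose by 0.84, 0.39, 1.20 and 0.84 and SARS1, for serine, by 0.63, 0.63, 0.92 and 0.39 in the 4 lines in the same order, while VARS1, for valine, fell by 0.90, 0.52, 0.71 and 1.11.

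Neighbouring gene groups had other counts. Of 14 measured enzymes of one-carbon and serine metabolism outside the member list, 1 rose and 4 fell in HCT-8, 2 rose and 7 fell in HGC-27, and 1 rose and 10 fell in Huh-7 cells, and 0 and 1 in HepG2 cells (1 and 7 without melatonin replicate 1). The 0 higher over all HepG2 arrays in limma was 0 at an unadjusted p of 5% and 0 in the methods' test. MTHFD1, the cytosolic counterpart of MTHFD2, fell by 0.89, 0.80 and 1.83 log2 units in these 3 lines. Of 23 other amino acid transporters, 1 rose and 1 fell in HCT-8, 4 rose and 6 fell in HGC-27, and 5 rose and 10 fell in Huh-7 cells, and 1 and 2 in HepG2 cells (5 and 6 without melatonin replicate 1). SLC7A6, another partner of SLC3A2, fell by 0.57, 0.59 and 1.06. Of 18 other C/EBP and ATF or CREB factors, 4 rose and 1 fell in HCT-8, 3 rose and 4 fell in HGC-27, and 4 rose and 4 fell in Huh-7 cells, and 0 and 1 in HepG2 cells (2 and 4 without melatonin replicate 1). The 0 higher over all HepG2 arrays in limma was 2 at an unadjusted p of 5% and 0 in the methods' test. A list of 17 genes covered the eIF2 kinases, eIF2 and its exchange factor, with others such as PPP1R15B. Of these 17, 3 rose and 4 fell in HCT-8, 5 rose and 7 fell in HGC-27, and 5 rose and 6 fell in Huh-7 cells, and 1 and 1 in HepG2 cells (2 and 4 without melatonin replicate 1). PPP1R15B, the constitutive partner of the eIF2 phosphatase, rose in HCT-8, HGC-27, Huh-7 and HepG2 cells by 0.24, 0.92, 0.93 and 0.61.

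The other branches of the unfolded protein response are read from 18 targets of ATF6 and XBP1, of which 10 rose and 1 fell in HCT-8, 12 rose and 1 fell in HGC-27, and 11 rose and 3 fell in Huh-7 cells. In HepG2 cells 0 rose and 3 fell in limma, and 0 rose and 6 fell without melatonin replicate 1, with 0 and 2 higher at an unadjusted p of 5% and 0 higher in the methods' test in either case. HSPA5, the chaperone BiP, rose by 0.30, 0.34 and 0.32 log2 units in the first 3 lines and fell by 0.38 ± 0.06 (SE) in HepG2 cells without that array (limma adjusted p = 0.00279, and -1.30 ± 0.74 with limma adjusted p = 0.375 over all arrays). DNAJB9, a co-chaperone of BiP, rose by 1.07, 1.17 and 0.76. The difference of these counts between lines was not tested. Of 11 NRF2 targets, 5 rose and 2 fell in HCT-8, 6 rose and 1 fell in HGC-27, and 2 rose and 8 fell in Huh-7 cells, and 2 and 2 in HepG2 cells (4 and 3 without melatonin replicate 1). Of 10 p53 targets, 2 rose and 3 fell in HCT-8, 7 rose and 1 fell in HGC-27, and 6 rose and 2 fell in Huh-7 cells, and 2 and 3 in HepG2 cells (3 and 5 without melatonin replicate 1).

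**Figure D4:**
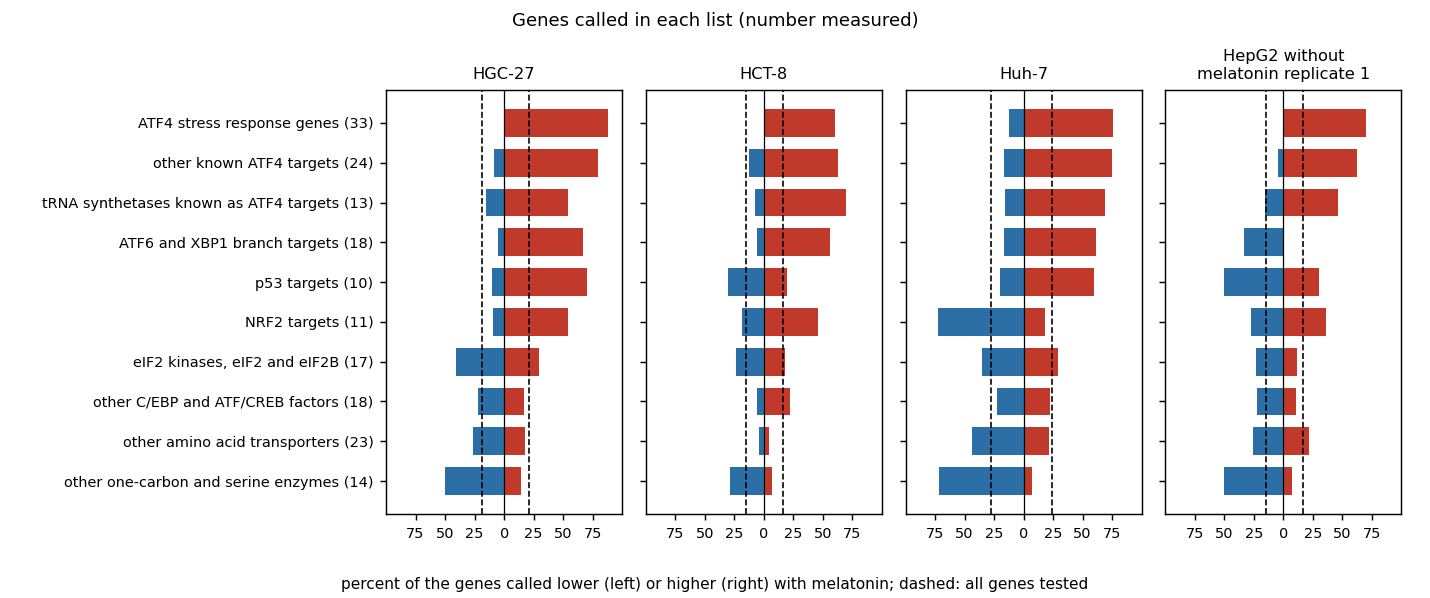
Percent of the measured genes of each list (number in brackets) called lower (left, blue) or higher (right, red) with melatonin at an adjusted p of 5% in limma, in each line. The HepG2 panel is without melatonin replicate 1. Dashed lines mark the percent of all genes called. Bars of the ATF4 stress response genes, the other known ATF4 targets, the tRNA synthetases and the p53 targets pass the right dashed line in each panel. No ATF6 and XBP1 target is called higher in HepG2 cells. The lists were chosen with earlier results of these data known.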

How the data were processed

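The authors deposited log2 intensities of 49495 probe sets on customized PrimeView arrays, summarised by RMA per the submitters' processing notes. Whether the lines were normalized together is not given in the sources used here. The platform annotation gave 1 gene symbol for 45342 probe sets, several for 1275 and none for 2878. Without 6 control probe sets, the values were averaged per gene. The 8 members with 1 probe set were ATF4, PHGDH, CEBPB, VLDLR, PPP1R15A, NUPR1, FGF21 and CTH. The methods call the 3 arrays of a group biological replicates, and their number limits the precision.

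Melatonin was compared with control in each line by limma 3.58.1 (R 4.3.3), p-values being adjusted by Benjamini-Hochberg over all 18265 genes. Lines were compared through line by treatment terms fitted to all 24 arrays, and pairs of lines with p-values adjusted over genes and 6 pairs. On simulated data the joint fit called too many unchanged genes when HepG2 melatonin arrays kept their own wide spread. Members, markers and lists were chosen with earlier results of these data known. All measured members are named. From each list at most 4 genes could be named, those with the highest and lowest summed log2 fold changes among genes called in at least 2 lines.

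Alternatives covered the replicate number as a block, choice of probe set, low values, normalization, centring, spread, joint fitting, a minimum fold change of 1.5, the methods' t-test and each array left out. Array weights were added after seeing the data. Arrays of the same number did not deviate together in every line (r between -0.041 and 0.135), so the numbers were not taken as pairs.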

Additional observations from a re-analysis of the deposited data

Results flagged for a closer look

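The effect of melatonin differed between the 4 lines for 23 members by the interaction test of limma over all 24 arrays, and these are listed by their adjusted p. Among the transcriptional regulators and TRIB3 it was 0.0208 for ATF4, 1.62e-06 for DDIT3, 0.05 for TRIB3, 0.0171 for ATF3, 1.48e-10 for ATF5, 0.0016 for CEBPB and 3.9e-07 for NUPR1. Among the serine and one-carbon enzymes it was 0.0459 for PSAT1, 6.46e-06 for PHGDH, 0.000141 for PSPH, 0.0242 for MTHFD2 and 0.0169 for ALDH1L2. Among the other enzymes it was 5.94e-11 for ASNS, 1.97e-06 for CHAC1 and 2.9e-07 for CTH. Among the transporters it was 0.000314 for SLC7A11, 0.0333 for SLC38A2, 0.00196 for SLC1A4 and 5.38e-05 for SLC6A9. Among the secreted proteins and other targets it was 0.0222 for GDF15, 1.49e-06 for STC2, 5.58e-08 for VLDLR and 0.00543 for PPP1R15A. The test assumes 1 spread per gene, which the HepG2 melatonin arrays exceed, and CEBPG and FGF21 are the members not called without HepG2 melatonin replicate 1 (adjusted p = 0.104 and 0.0753).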

How the results depend on the processing

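No call turned to the opposite direction under any alternative. Of the values for single members in single lines, 2056 stayed on their side of the threshold (46 of them, not called under either setting, with the opposite sign), 114 lost their call, 59 gained one and 9, all in HepG2 cells, gained one with the sign opposite to that over all arrays. Without HepG2 melatonin replicate 1 these were PSAT1 at 0.30, against -0.18 over all arrays, TRIB3 at 0.69, against -0.34, SLC3A2 at 0.27, against -1.39, GDF15 at 0.78, against -0.13, and PCK2 at 0.67, against -0.19. Their lowest values with another array left out were -0.43, -0.92, -2.25, -0.60 and -0.62 in that order, which did not pass. With array weights PSAT1 was at 0.27, TRIB3 at 0.71, GDF15 at 0.76 and PCK2 at 0.63. In HGC-27 cells the members' median log2 fold change was 0.51 with arrays centred on the median gene and 0.73 with ERCC spike-in centring, and 17 members were higher at a fold change of at least 1.5. In HCT-8 cells the median was 0.51 with the brightest probe set, 0.51 with dim genes left out and 0.62 with ERCC centring, 13 members were higher at that fold change, and 1 was lower with the brightest probe set. In Huh-7 cells the median was 0.86 with the brightest probe set, 0.81 with dim genes left out and 0.69 with median centring. The count lower there was 2 with the brightest probe set, 2 with repeated quantile normalization, 2 with ERCC centring, 0 in the joint limma fit and 1 at a fold change of at least 1.5. In HepG2 cells 11 members were higher with the brightest probe set, 3 with ERCC centring (3 lower), 13 in the joint fit and 23 with array weights (1 lower), a setting chosen after seeing the data. The count higher in all 4 lines was 8 with the brightest probe set, 2 with ERCC centring, 8 in the joint fit, 1 at a fold change of at least 1.5 and 14 with array weights. The cause was not tested. ERCC centring rests on 1 or 2 of 100 spike-in probe sets above the median and moved the median of all genes by 0.24 in HCT-8, 0.14 in HGC-27, -0.24 in HepG2 and -0.02 in Huh-7 cells.

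With each array left out in turn, members lower ran from 0 to 1 in HCT-8 and from 1 to 4 in Huh-7 cells, members higher from 1 to 23 in HepG2 cells, and members higher in all 4 lines from 1 to 15. The HepG2 count was 1 without any single control array, 4 without melatonin replicate 2 and 23 without melatonin replicate 1. SLC1A4 and SLC3A2 in HCT-8 cells and SLC1A5, CBS and FGF21 in Huh-7 cells lost their calls in at least 1 of these fits, and no HGC-27 call was lost. With the replicate block 1 member, NUPR1, was higher in HepG2 cells and 1 in all 4 lines, ASNS, MTHFD2, CEBPB, CEBPG, VLDLR and CTH lost their calls in HepG2 and CBS in Huh-7 cells, and the block lost no other call among the members in single lines. The numbers were not taken as pairs, since arrays of the same number did not deviate together in every line. In HepG2 cells r was 0.135 and 0.121 for numbers 1 and 2 but 0.005 for number 3, so pairing there is not settled.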
